A study of Mus musculus with 8 samples.

Results

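The Gimap genes encode a family of GTPases, the GTPases of immunity-associated proteins, and 8 of them (Gimap1, Gimap3, Gimap4, Gimap5, Gimap6, Gimap7, Gimap8 and Gimap9) were followed here in mouse splenic B cells. They were chosen by mouse symbol, matched from the Ensembl identifiers in the count tables, and each symbol matched 1 of the 37583 identifiers. RNA was sequenced from 8 libraries of B cells isolated from spleens of C57BL/6 mice (strain B6 in the labels), with no transgene or deletion named. The TLR group has 2 libraries of cells given CpG ODN1668, a DNA ligand of the receptor TLR9, over 3 days, and in the last 5 hours also LPS, which TLR4 binds, the phorbol ester PMA and the calcium ionophore ionomycin. The CpG group has 3 libraries of cells given CpG ODN1668 for 3 days without the other agents, and the naive group has 3 libraries of naive B cells. The sample titles call both stimulated groups Bregs, for regulatory B cells, while the protocol text calls the CpG group B cells only. The labels do not say whether naive cells were cultured, so the effects of culture and of CpG cannot be told apart. They do not say either whether libraries came from separate mice or cultures, so p-values measure the spread between these libraries, which may be technical.

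GIMAP proteins share a GTP-binding domain called AIG1, and most sit on membranes inside the cell. The family is transcribed mainly in lymphocytes and is best known for keeping resting lymphocytes alive: loss of Gimap1 in mice removes most mature T and B cells, and loss of Gimap5 in mice and rats leads to lymphopenia. Much of what is known of the other members comes from T cells, so T cell RNA in the B cell libraries bears on every value given here.

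The 8 genes lie in a single cluster on mouse chromosome 6 that spans 124 kb in the GENCODE M21 annotation, in the order Gimap8, Gimap9, Gimap4, Gimap6, Gimap7, Gimap1, Gimap5 and Gimap3. Gimap6 and Gimap3 are on the minus strand and the others on the plus strand. RefSeq promoter windows of build GRCm38.p6 were found for all 8 genes, and the 250 bases before the start are shown for 4 of them: Gimap7 and Gimap1, which had the largest decreases in TLR libraries, and Gimap4 and Gimap3, which were the members called higher in CpG libraries. The windows are chr6:48718371-48718620 on the plus strand, chr6:48738797-48739046 on the plus strand, chr6:48684328-48684577 on the plus strand and chr6:48770852-48771101 on the minus strand. Each sequence reads 5′ to 3′ on the gene's own strand, and capitals mark every match to the motifs named after the sequences.
Gimap7: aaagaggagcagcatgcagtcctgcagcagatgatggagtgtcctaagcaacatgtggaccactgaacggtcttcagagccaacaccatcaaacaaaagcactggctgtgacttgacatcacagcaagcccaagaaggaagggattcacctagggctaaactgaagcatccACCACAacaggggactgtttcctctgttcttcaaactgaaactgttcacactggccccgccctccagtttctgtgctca
Gimap1: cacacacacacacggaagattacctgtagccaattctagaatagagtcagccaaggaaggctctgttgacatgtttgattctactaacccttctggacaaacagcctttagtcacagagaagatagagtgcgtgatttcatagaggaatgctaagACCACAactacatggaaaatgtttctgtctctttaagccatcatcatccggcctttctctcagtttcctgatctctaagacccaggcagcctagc
Gimap4: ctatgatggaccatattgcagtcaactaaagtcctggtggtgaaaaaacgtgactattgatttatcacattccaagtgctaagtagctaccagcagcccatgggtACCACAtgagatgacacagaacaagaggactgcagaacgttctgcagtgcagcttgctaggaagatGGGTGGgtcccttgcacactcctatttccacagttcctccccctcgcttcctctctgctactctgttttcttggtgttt
Gimap3: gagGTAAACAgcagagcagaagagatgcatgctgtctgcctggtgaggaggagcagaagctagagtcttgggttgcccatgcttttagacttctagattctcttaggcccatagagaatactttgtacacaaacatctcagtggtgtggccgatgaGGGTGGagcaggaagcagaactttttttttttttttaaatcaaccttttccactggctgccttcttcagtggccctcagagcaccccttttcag

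Motifs were searched as letters on both strands. The RUNX letters TGTGGT, here all as the reverse complement ACCACA, occurred in the windows of Gimap7, Gimap1 and Gimap4 and in 14.0% of the 32851 windows of the same length. The KLF letters CCACCC occurred in those of Gimap3, Gimap4, Gimap5, Gimap8 and Gimap9 and in 28.1% of all windows. The FOXO letters TGTTTAC occurred in that of Gimap3 (3.17% of all windows), and the ETS letters AGGAAGT in that of Gimap5 (7.69% of all windows). The AP-1 letters TGANTCA (6.75% of all windows) were in 0 members' windows. No matches overlapped each other. The windows that held the RUNX letters belong to members that were lower and to a member that was higher in TLR libraries than in naive libraries.

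Gene counts summed to between 15804311 and 20069272 a library, and levels are given as CPM, in which 1 count was worth 0.0501 to 0.0645. All 8 members were far above that, with 417 to 17086 counts per library, and all passed the filter on low counts. Replicate 1 of each group carries the library prefix RCa1 and the other libraries RCa18, and the labels do not say what the prefix stands for. Between 37.5% and 50.2% of reads had no unique alignment in RCa1 libraries, and between 14.7% and 21.5% in RCa18 libraries. For all 15 called differences of members given here the groups compared did not overlap. The sign within each prefix was therefore bound to be the same, and it is no check on the prefix. The summed level of 8 B cell markers (among them Cd79a, Cd79b, Ms4a1, Pax5, Cd22, Ebf1 and Blnk) was 2952 and 3149 CPM in TLR libraries, 9317 to 13712 CPM in CpG libraries and 10883 to 11529 CPM in naive libraries. Since RNA was measured in bulk, fewer cells of a type and less RNA per cell cannot be told apart.

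Summed over the 8 members, the family held 2188 and 2525 CPM in TLR libraries, 2816, 2921 and 2434 CPM in CpG libraries, and 2531, 2707 and 2811 CPM in naive libraries. The CpG libraries overlapped both other groups, while both TLR libraries lay below all naive libraries by a narrow margin. No test was made on the sum. Within the family the make-up differed between groups. On the scale of CPM per kilobase of exon, Gimap4 made up 47.6% of the summed family level in TLR libraries, 39.0% in CpG libraries and 27.2% in naive libraries, while Gimap6 made up 16.8% in TLR libraries, 16.02% in CpG libraries and 23.9% in naive libraries. Gimap7 made up 1.18% in TLR libraries, 3.84% in CpG libraries and 4.71% in naive libraries.

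**Figure D1:**
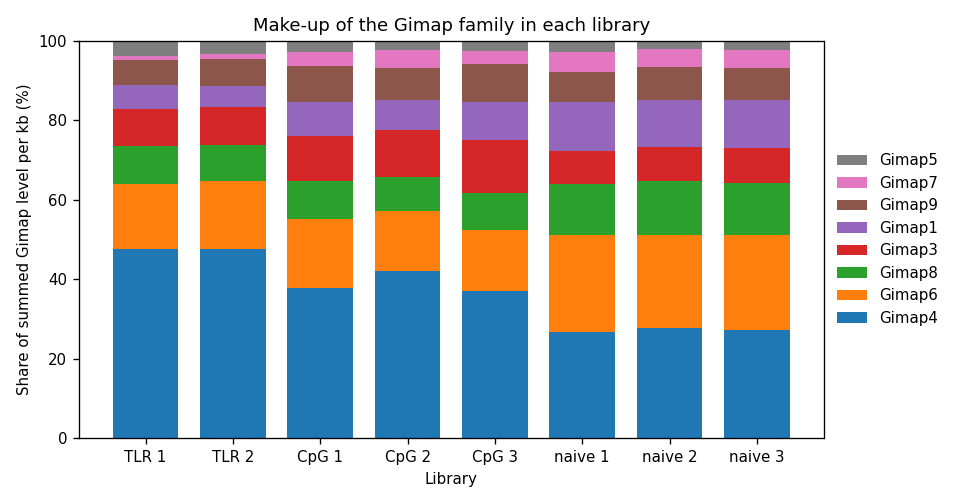
The stacked bars show, for each library on the horizontal axis, the percentage of the summed Gimap level (CPM per kilobase of exon) held by each of the 8 genes. The lowest segment, Gimap4, spans 47.5% to 47.6% in TLR libraries, 36.9% to 42.0% in CpG libraries and 26.8% to 27.6% in naive libraries.

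Levels per kilobase had the same first and second gene in the 3 groups, while the order of the others differed. Gimap4 was first, at 448 ± 45.9 CPM per kb in TLR libraries (SD, n = 2), 422 ± 70.1 in CpG libraries (SD, n = 3) and 265 ± 17.4 in naive libraries (SD, n = 3). It ranked 44 in TLR libraries, 60 in CpG libraries and 86 in naive libraries among 13375 tested genes with an annotated length. Gimap6 was next in every group, at 159 ± 22.9 CPM per kb in TLR libraries, 173 ± 21.4 in CpG libraries and 232 ± 11.7 in naive libraries (SD). The last place was held by Gimap7 in TLR libraries, at 11.1 ± 1.3 CPM per kb, and by Gimap5 in CpG and naive libraries, at 27.7 ± 3.51 and 23.4 ± 2.62 CPM per kb (SD). In TLR libraries the ranges of Gimap3 and Gimap8 overlapped, as did those of Gimap9 and Gimap1. In CpG libraries those of Gimap8 and Gimap9 overlapped, as did those of Gimap7 and Gimap5. In naive libraries those of Gimap8 and Gimap1 overlapped, as did those of Gimap3 and Gimap9. All other neighbours in the order had separate ranges. Gimap3 was above Gimap1 in TLR and CpG libraries and below it in naive libraries, but with the longest transcript as length Gimap1 was above Gimap3 in CpG libraries as well.

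**Figure D2:**
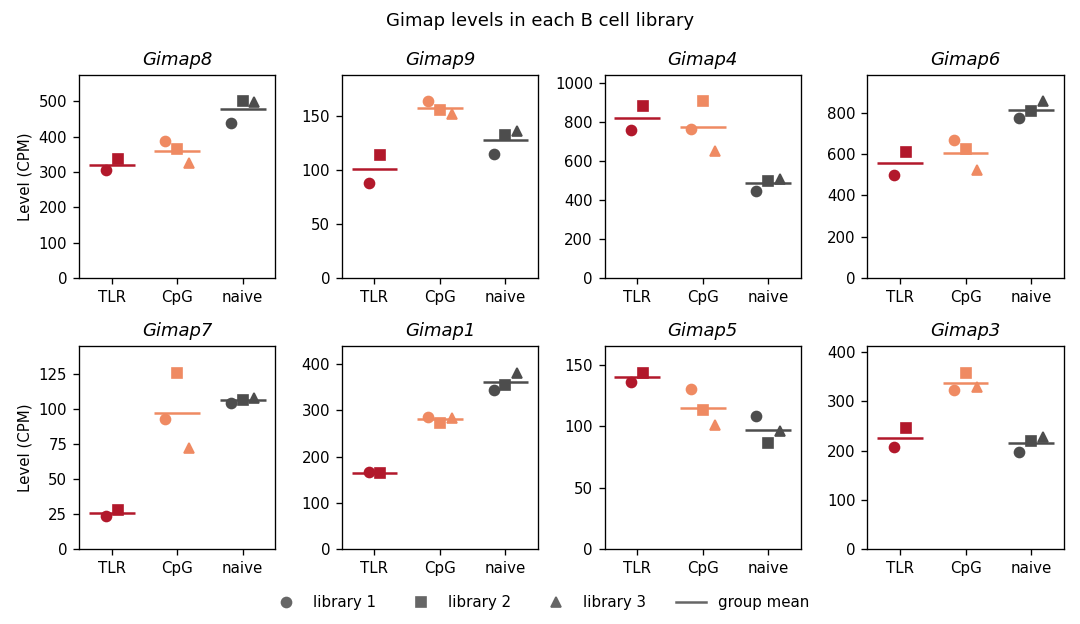
Each panel shows 1 gene, in chromosomal order, with its level in CPM on the vertical axis from 0 and the TLR, CpG and naive groups on the horizontal axis. Points are libraries, marker shapes are replicate numbers and horizontal bars are group means; Gimap7 has its 2 TLR libraries at 23.6 and 27.9 CPM, below all others, while Gimap4 has its 3 naive libraries at 450 to 509 CPM, below all others.

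Members differed in both directions between CpG and naive libraries. In edgeR's quasi-likelihood test with Benjamini-Hochberg adjustment over all 13964 tested genes, called at an adjusted p below 0.05, 2 of 8 members were higher in CpG libraries (Gimap3 and Gimap4) and 3 were lower (Gimap1, Gimap6 and Gimap8). Over all tested genes 23.5% were called higher and 21.9% lower, 45.5% in all, beside which 5 of 8 members is not a large excess. The CpG and naive libraries did not overlap for 6 of 8 members, against 56% of all tested genes. The median log2 fold change was 0.06 over the members and 0.01 over all tested genes. Leaving out single libraries ended calls of decreases: 2 members were called without naive replicate 3 (Gimap3 and Gimap4), and 3 without naive replicate 2 or without CpG replicate 3 (Gimap1, Gimap3 and Gimap4).

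LPS, PMA and ionomycin, added to CpG for the last 5 hours, were followed by lower levels of 4 of 8 members (Gimap1, Gimap3, Gimap7 and Gimap9) and by higher levels of 0 in the comparison of TLR with CpG libraries. In the same test 19.8% of all genes were called lower and 19% higher, 38.8% in all. The libraries of the groups did not overlap for 5 of 8 members, against 59.3% of all tested genes. The median log2 fold change was -0.37 over the members and -0.02 over all tested genes. Without TLR replicate 1, 2 members were called (Gimap1 and Gimap7). At an unadjusted p under 0.05 the count was also 0 higher and 4 lower, and DESeq2 also called 0 members higher and 4 lower.

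Between TLR and naive libraries 2 of 8 members were higher (Gimap4 and Gimap5) and 4 were lower (Gimap1, Gimap6, Gimap7 and Gimap8). Of all tested genes 31.6% were called higher and 29.7% lower, 61.2% in all. The groups did not overlap for 7 of 8 members, against 78.1% of all tested genes. The median log2 fold change was -0.44 over the members and 0.01 over all tested genes. The 3 comparisons share their libraries pairwise and are not independent of each other.

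**Figure D3:**
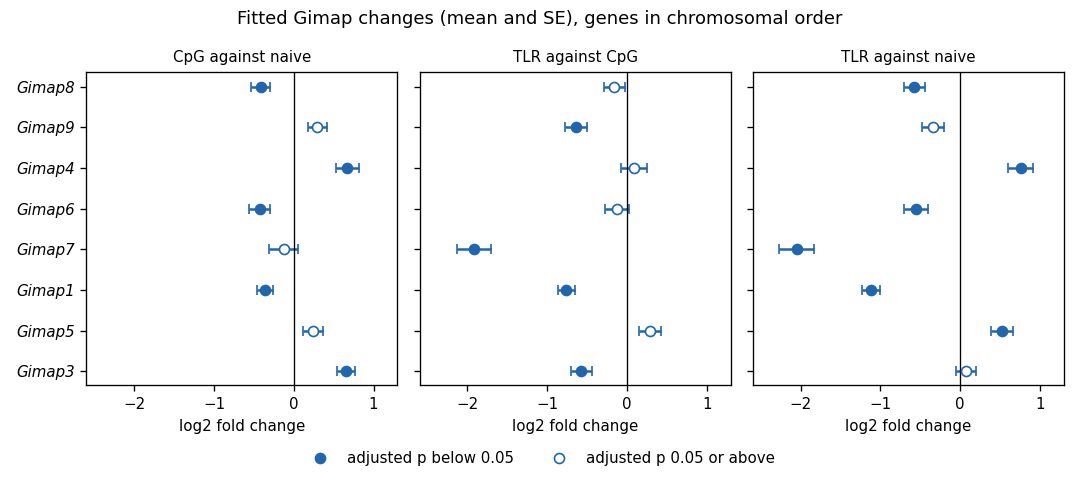
For each of the 8 genes, in chromosomal order from top to bottom, the log2 fold change of edgeR's fit is on the horizontal axis, with bars of 1 SE, in a panel for each comparison. Filled points were called at an adjusted p below 0.05: Gimap7 lies farthest left in both comparisons of TLR libraries (-1.92 against CpG and -2.05 against naive), and Gimap4 lies right of 0 against naive in both CpG and TLR libraries (0.67 and 0.76).

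Gimap1, needed in mice for the survival of mature B and T cells, had 167 and 165 CPM in TLR libraries, 285, 273 and 283 CPM in CpG libraries, and 344, 355 and 381 CPM in naive libraries. The 3 groups did not overlap, with TLR libraries lowest and naive libraries highest. Its log2 fold change was -0.36 (SE 0.10, adjusted p = 0.0131, edgeR) for CpG against naive, -0.76 (SE 0.11, adjusted p = 0.000573) for TLR against CpG and -1.12 (SE 0.11, adjusted p = 2.24e-05) for TLR against naive. The first of these calls was lost without naive replicate 3 (adjusted p = 0.0668). An antisense gene, Gimap1os, overlaps 36.0% of the exon bases of Gimap1, and since counting ignored strand, reads there cannot be assigned to either. Gimap1os had 38.8 and 31.8 CPM in TLR libraries, 56.3, 51.9 and 37.8 CPM in CpG libraries, and 41.9, 41.7 and 40.9 CPM in naive libraries, well below Gimap1 in every library. It was not called in any of the 3 comparisons.

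Gimap5, a lysosomal membrane member whose loss in mice depletes lymphocytes, had 136 and 144 CPM in TLR libraries, 130, 113 and 101 CPM in CpG libraries, and 108, 86.4 and 96.3 CPM in naive libraries. TLR libraries were above all others, while CpG and naive libraries overlapped. Gimap5 was higher in TLR than in naive libraries, with a log2 fold change of 0.53 (SE 0.14, adjusted p = 0.00774, edgeR); without TLR replicate 2 the adjusted p was 0.0504. Its differences for TLR against CpG (0.28, SE 0.14, adjusted p = 0.135) and for CpG against naive (0.25, SE 0.13, adjusted p = 0.137) were not called. For TLR against CpG the call was made without CpG replicate 1 (adjusted p = 0.0388) and in RCa18 libraries alone (adjusted p = 0.0470).

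Gimap3, a close relative of Gimap5 known in mice for an effect on mitochondrial DNA segregation, had 207 and 245 CPM in TLR libraries, 322, 358 and 329 CPM in CpG libraries, and 197, 218 and 228 CPM in naive libraries. CpG libraries stood above all others, and TLR and naive libraries overlapped. Gimap3 rose in CpG against naive libraries (log2 fold change 0.65, SE 0.11, adjusted p = 0.00144, edgeR) and fell in TLR against CpG libraries (-0.57, SE 0.13, adjusted p = 0.00624). The second call was lost without TLR replicate 1 (adjusted p = 0.0727). Between TLR and naive libraries the difference was 0.08 (SE 0.13, adjusted p = 0.618). Gimap3 and Gimap5 share 190 stretches of 50 bases, 7.52% of those in the transcripts of Gimap3 and 4.53% of those of Gimap5, so their counts may be split or lost there.

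Gimap4, known from mice to speed the death of T cells, had 763 and 882 CPM in TLR libraries, 767, 908 and 650 CPM in CpG libraries, and 450, 501 and 509 CPM in naive libraries. Both stimulated groups lay above all naive libraries and overlapped each other. The log2 fold change was 0.76 (SE 0.16, adjusted p = 0.00228, edgeR) for TLR against naive and 0.67 (SE 0.14, adjusted p = 0.00423) for CpG against naive. Both calls were made in all 18 alternatives. The difference for TLR against CpG was 0.09 (SE 0.16, adjusted p = 0.708), and within the prefixes it was -0.01 for RCa1 and 0.18 for RCa18.

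Gimap6, which binds the autophagy protein GABARAPL2, had 498 and 611 CPM in TLR libraries, 668, 623 and 522 CPM in CpG libraries, and 774, 807 and 855 CPM in naive libraries. Naive libraries were above all others, while TLR and CpG libraries overlapped. Gimap6 was lower in TLR than in naive libraries by a log2 fold change of -0.55 (SE 0.15, adjusted p = 0.0106, edgeR), and lower in CpG than in naive libraries by -0.43 (SE 0.13, adjusted p = 0.0270). The call against naive was lost in TLR libraries without TLR replicate 1 (adjusted p = 0.103). In CpG libraries it was lost without naive replicate 2, naive replicate 3, CpG replicate 2 or CpG replicate 3 (adjusted p = 0.0598 to 0.0935). For TLR against CpG the difference was -0.12 (SE 0.15, adjusted p = 0.555), with -0.42 in RCa1 and 0.09 in RCa18 libraries.

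Gimap8, a long member with more than 1 GTPase domain, followed a like pattern, at 306 and 336 CPM in TLR libraries, 386, 364 and 324 CPM in CpG libraries, and 438, 500 and 497 CPM in naive libraries. Naive libraries were again above all others, and TLR and CpG libraries overlapped. The log2 fold change was -0.58 (SE 0.13, adjusted p = 0.00389, edgeR) for TLR against naive and -0.42 (SE 0.12, adjusted p = 0.0157) for CpG against naive. The call for CpG against naive was lost without naive replicate 2, naive replicate 3 or CpG replicate 3 (adjusted p = 0.0512 to 0.0620). For TLR against CpG the difference was -0.16 (SE 0.13, adjusted p = 0.372). Across the 8 libraries, which fall into 3 groups, log2 levels of Gimap6 and Gimap8 had a Pearson correlation of 0.97, the highest of the 28 pairs of members.

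Gimap7, whose human form stimulates the GTPase activity of GIMAP2, had 23.6 and 27.9 CPM in TLR libraries, 93.5, 126 and 72.5 CPM in CpG libraries, and 105, 107 and 108 CPM in naive libraries. Both TLR libraries lay far below the rest, while CpG and naive libraries overlapped and the CpG libraries spread the most. In TLR libraries Gimap7 fell to 0.264 times its level in CpG libraries (log2 fold change -1.92, SE 0.22, adjusted p = 0.000121, edgeR) and to 0.242 times that in naive libraries (-2.05, SE 0.22, adjusted p = 3.04e-05). Both calls were made in all 18 alternatives. Between CpG and naive libraries the difference was -0.13 (SE 0.18, adjusted p = 0.581).

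Gimap9 had 88.3 and 114 CPM in TLR libraries, 164, 156 and 152 CPM in CpG libraries, and 116, 133 and 136 CPM in naive libraries. The groups did not overlap, with CpG libraries highest and TLR libraries lowest. Gimap9 was lower in TLR than in CpG libraries (log2 fold change -0.64, SE 0.14, adjusted p = 0.00516, edgeR), a call lost without TLR replicate 1 (adjusted p = 0.0633). Its differences for CpG against naive (0.30, SE 0.12, adjusted p = 0.0711) and for TLR against naive (-0.34, SE 0.14, adjusted p = 0.0536) lay close to the threshold. The call for TLR against naive was made in 7 of 18 alternatives, DESeq2 among them (adjusted p = 0.0247), and that for CpG against naive in 3 of 18.

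Beside the decreases in TLR libraries, all 8 B cell markers were called lower in TLR than in CpG libraries, and their summed level was 0.282 times that in CpG libraries. The ratio for Gimap7 was 0.264, close to that of the summed B cell markers, and those of the other 3 lowered members were 0.591 for Gimap1, 0.672 for Gimap3 and 0.643 for Gimap9. Single B cell markers differed widely. Mean levels in TLR and CpG libraries were 64.5 and 1995 CPM for Ms4a1, and 295 and 415 CPM for Ebf1. Whether the decreases of the members and of the B cell markers are related was not tested.

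T cell RNA was followed with 6 defining markers (Cd3d, Cd3e, Cd3g, Cd8a, Cd8b1 and Themis), parts of the T cell receptor complex, its co-receptor and a T cell signalling protein. Their summed counts were 0 and 8 in TLR libraries, 7, 24 and 2 in CpG libraries, and 109, 63 and 274 in naive libraries. Some T cell RNA was thus present in naive libraries and little in stimulated ones. Of the defining markers, 3 were at 0 in both TLR libraries and 1 was at 0 in all CpG libraries. The 20 listed T cell markers together had 455 and 598 counts in TLR libraries, 1149, 1297 and 850 in CpG libraries, and 1733, 1439 and 2235 in naive libraries. The kinase gene Lck, which some B cells also transcribe, gave 72.7% and 85.1% of these counts in TLR libraries, 84.6% to 90.2% in CpG libraries and 49.4% to 72.0% in naive libraries. Of the 18 listed markers tested, 14 were called lower in CpG than in naive libraries, 3 lower in TLR than in CpG libraries, and 16 lower in TLR than in naive libraries.

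Gimap genes are also transcribed in T cells, so none of the 8 can be assigned to B cells by its symbol. In the 5 stimulated libraries, where the defining T cell markers summed to at most 24 counts, each member had between 417 and 17086 counts. In naive libraries the defining markers differed 4.53-fold between the lowest and the highest library, while the summed family level differed 1.11-fold and no single member more than 1.25-fold. The defining markers were highest in naive replicate 3 and lowest in naive replicate 2. Of the 8 members, 6 were highest in naive replicate 3, all with replicate 1 lowest, and 0 followed the order of the defining markers over the 3 naive libraries. These orders were not counted over all tested genes. With 3 libraries and such small differences, they cannot settle the part of T cell RNA in the members, which was not tested. The summed members had 24.1 to 84.9 times the level of the 20 T cell markers in a library.

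Counts of the members beside those of the 20 T cell markers were lowest for Gimap7, Gimap5 and Gimap9, in an order that differed between libraries. Gimap7 had 0.903 to 1.82 times, Gimap5 0.825 to 5.27 times and Gimap9 1.17 to 3.71 times the counts of the 20 markers in a library. For Gimap4 and Gimap6 the ratios were 4.36 to 29.6 and 7.33 to 19.8. Lck, which some B cells also transcribe, gave 49.4% to 90.2% of the counts of the 20 markers, so these ratios depend largely on Lck. Against the defining markers alone, in the 7 libraries with such counts, the lowest ratios were 6.73 (Gimap5), 7.56 (Gimap7) and 9.52 (Gimap9). Gimap3 and Gimap4 were higher in CpG than in naive libraries, and Gimap4 and Gimap5 were higher in TLR than in naive libraries, while the summed defining markers were at 0.0797 times the naive level in CpG libraries and at 0.0268 times in TLR libraries. Gimap1, Gimap6 and Gimap8 moved in the same direction as the T cell markers in CpG against naive libraries, with ratios of 0.778, 0.744 and 0.749. The part of T cell RNA in their naive levels was not tested, since no library of T cells was used here. For TLR against CpG, where Gimap7 had its large decrease, the summed defining markers overlapped between the groups.

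**Figure D4:**
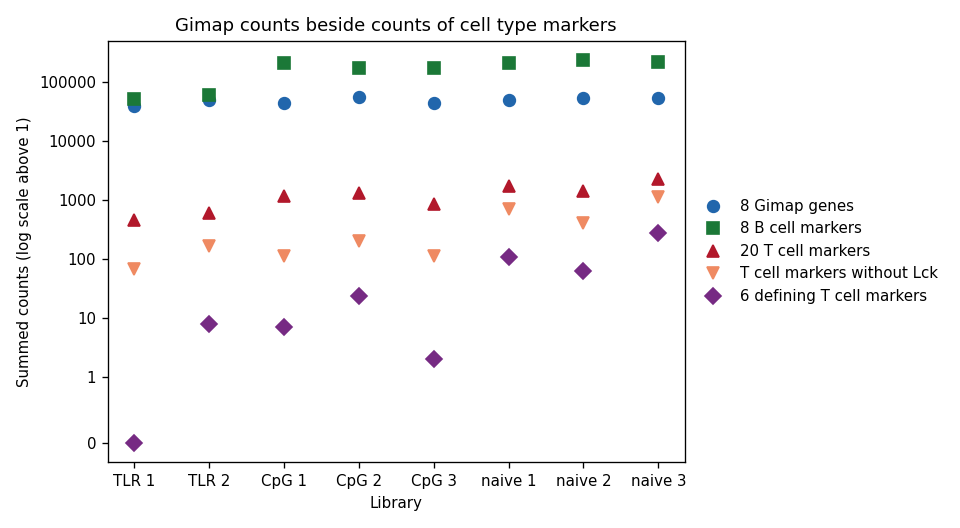
Summed counts are on the vertical axis, logarithmic above 1 with 0 shown at the bottom, for each library on the horizontal axis, for the 8 Gimap genes, 8 B cell markers, 20 T cell markers, the same T cell markers without Lck, and the 6 defining T cell markers. The Gimap sum stays between 38647 and 54670 counts, while the defining T cell markers lie at 0 to 24 counts in the TLR and CpG libraries and at 63 to 274 in the naive libraries.

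Of the other cell types of the spleen, 3 had summed markers that were lower in every stimulated library than in any naive library. Natural killer cell markers summed to 3.11 and 3.56 CPM in TLR libraries, 3.42 to 5.02 CPM in CpG libraries and 27.0 to 107 CPM in naive libraries. Macrophage and monocyte markers summed to 13.9 and 21.2 CPM in TLR libraries, 24.9 to 53.8 CPM in CpG libraries and 185 to 1520 CPM in naive libraries. Endothelial markers summed to 0.736 and 0.929 CPM in TLR libraries, 3.87 to 4.15 CPM in CpG libraries and 7.52 to 38.6 CPM in naive libraries. Dendritic cell markers summed to 4.70 and 7.69 CPM in TLR libraries, 12.2 to 42.0 CPM in CpG libraries and 29.1 to 70.5 CPM in naive libraries, with CpG and naive libraries overlapping. Neutrophil markers summed to 5.27 and 2.99 CPM in TLR libraries, 1.02 to 2.51 CPM in CpG libraries and 1.5 to 21.3 CPM in naive libraries, with naive libraries overlapping both stimulated groups. Platelet markers summed to 2.04 and 3.25 CPM in TLR libraries, 2.46 to 3.16 CPM in CpG libraries and 2.55 to 13.1 CPM in naive libraries, also overlapping. Erythroid markers, at 34.2 and 36.6 CPM in TLR libraries, 3.48 to 12.1 CPM in CpG libraries and 54.6, 4.66 and 10.8 CPM in naive libraries, were above CpG libraries in both TLR libraries. Some of these sums rested largely on a single gene. Flt3 gave 140 of 189, 725 of 786 and 251 of 355 dendritic cell marker counts in CpG libraries. Cdh5 gave 33 of 60, 58 of 75 and 57 of 76 endothelial marker counts in CpG libraries. Its mean was 2.78 CPM there and 2.42 CPM in naive libraries, unlike the endothelial sum. Cd5l gave 285 of 540, 249 of 466 and 404 of 986 macrophage and monocyte marker counts in CpG libraries. In TLR libraries Csf3r gave all 93 and 58 neutrophil marker counts, and Itga2b gave 35 of 36 and 61 of 63 platelet marker counts. Hbb-bt gave 588 of 604 and 704 of 709 erythroid marker counts there. Such sums may not follow the cell type named. The part of these cell types in the members' values was not tested.

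The genes whose pattern over the 8 libraries was most like the family's were ranked by Pearson correlation of log2 CPM with the mean of the 8 scaled members, among 8958 genes that averaged 8 CPM or more. The first 5 were Anapc13 (0.99), Ppp1r18 (0.98), Clta (0.96), Dnpep (0.96) and Vav1 (0.95). These values describe 8 libraries in 3 groups. By Spearman correlation Anapc13 was at 1, Ppp1r18, Clta and Dnpep were tied at 0.976, and Vav1 was at 0.857. Ties at 0.976 ran past the first 5, so which of the tied genes stayed among them was arbitrary. The family mean itself did not stand for all members, since their own correlations with it ran from 0.91 for Gimap9 to -0.07 for Gimap4 and -0.38 for Gimap5. Each member is part of that mean, which raises its own correlation with it.

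Genes beside the cluster did not share a direction. Over all tested genes 23.5% were called higher and 21.9% lower in CpG against naive libraries, 19% and 19.8% in TLR against CpG libraries, and 31.6% and 29.7% in TLR against naive libraries, with medians of 0.01, -0.02 and 0.01, against which the counts and medians of this and the other lists are to be read. Of 9 listed neighbours on chromosome 6, 6 were tested, and Rarres2, Aoc1 and Atp6v0e2 did not pass the filter on low counts. In CpG against naive libraries 4 were called higher, namely Tmem176a (log2 fold change 1.47), Tmem176b (1.04), Repin1 (1.16) and Zfp775 (0.59), and 2 lower, namely Lrrc61 (-0.68) and Zfp467 (-0.82). In TLR against CpG libraries Repin1 was called higher (1.13), Lrrc61 (-0.51) and Zfp467 (-1.41) were called lower, and Tmem176a (-0.56), Tmem176b (-0.32) and Zfp775 (0.20) were not called. In TLR against naive libraries 2 were called higher, Repin1 (2.29) and Zfp775 (0.80), and 2 lower, Lrrc61 (-1.19) and Zfp467 (-2.23), while Tmem176a (0.91) and Tmem176b (0.73) were not called. The median over the 6 was 0.82 for CpG against naive, -0.42 for TLR against CpG and 0.76 for TLR against naive.

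Genes of proteins reported as partners of GIMAP proteins include the apoptosis regulators Bcl2, Bcl2l1, Mcl1, Bax and Bad, the chaperone Hspa8, the kinase Gsk3b and the autophagy genes Gabarap, Gabarapl1 and Gabarapl2. Of these 10 genes, 5 were called higher in CpG than in naive libraries: Bcl2 (log2 fold change 0.90), Bcl2l1 (2.54), Bax (0.76), Bad (0.91) and Gabarapl1 (1.40). The other five differed by -0.09 (Mcl1), 0.16 (Hspa8), 0.02 (Gsk3b), -0.03 (Gabarap) and 0.01 (Gabarapl2). In TLR against CpG libraries Bcl2l1 (1.87) and Gabarapl1 (0.66) were called higher and Mcl1 (-1.27) and Gsk3b (-0.55) lower. Against naive libraries, 6 of 10 were called higher in TLR libraries, with Bcl2l1, which encodes the survival protein Bcl-xL, at 172 CPM in TLR libraries and 8.10 CPM in naive libraries (4.41, adjusted p = 9.41e-08, edgeR). The 2 called lower were Mcl1 (-1.36) and Gsk3b (-0.53). The median over the 10 genes was 0.46 for CpG against naive, -0.15 for TLR against CpG and 0.68 for TLR against naive.

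Other GTPases of immune cells, the guanylate-binding proteins, the IRG proteins and the Mx proteins, gave 14 tested genes of 16 listed, since Gbp5 and Gbp6 were not matched by symbol. In CpG against naive libraries 2 were called higher and 6 lower, in TLR against CpG libraries 5 were called lower, and in TLR against naive libraries 2 higher and 8 lower. In the last comparison the smallest p-values were those of Gbp4 (log2 fold change -2.72), Gbp9 (-2.50), Gbp8 (-4.56), Gbp7 (-1.14) and Gbp3 (-0.64). Several of these genes have near-identical copies, so their counts are uncertain. The median over the 14 was -0.56 for CpG against naive, 0.07 for TLR against CpG and -1.26 for TLR against naive.

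Genes known from resting lymphocytes gave 20 tested genes. Of these, 1 was called higher and 10 lower in CpG than in naive libraries, 2 higher and 12 lower in TLR than in CpG libraries, and 3 higher and 14 lower in TLR than in naive libraries. Of all tested genes 21.9%, 19.8% and 29.7% were called lower in these comparisons. In the last comparison the smallest p-values were those of the quiescence factor Klf2 (log2 fold change -6.54), the egress receptor S1pr1 (-6.72), Klf3 (-3.93), Btg2 (-2.67) and Pdcd4 (-3.08). Gimap7 and Gimap1 had smaller decreases than these named genes, of -2.05 and -1.12, but that of Gimap7 was larger than the list's median of -1.47. The list's median was -0.48 for CpG against naive, -0.90 for TLR against CpG and -1.47 for TLR against naive, against -0.44 over the members in the last comparison. T cells transcribe Klf2, S1pr1, Tcf7 and Lef1 as well.

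Among 12 listed genes of B cell survival and maturation, 2 were called higher and 5 lower in CpG than in naive libraries, 3 higher and 7 lower in TLR than in CpG libraries, and 1 higher and 8 lower in TLR than in naive libraries. The B cell receptor genes Cd79a (log2 fold change -1.30) and Cd79b (-2.02), the kinase genes Syk (-1.56) and Pik3cd (-0.40) and the BAFF receptor gene Tnfrsf13c (-0.67) were among those lower in TLR than in CpG libraries. The NF-kB subunit genes Nfkb1 (0.59), Nfkb2 (0.97) and Rel (0.90) were higher in the same comparison, and Bcl10 (-0.20) and Malt1 (-0.30) were not called. The median over the 12 was -0.32 for CpG against naive, -0.54 for TLR against CpG and -0.97 for TLR against naive.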

How the data were processed

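Per the labels' protocols, total RNA was polyA-selected and made into strand-specific libraries. The submitters' processing notes name STAR, HTSeq, edgeR and build mm9, with versions not given in the sources used here. What the authors deposited are whole-number read counts for each gene and library, and per the file names counting ignored strand. Symbols came from GENCODE M21 by identifier (32860 of 37583 matched). Counts were fitted in R 4.3.3 with edgeR 4.0.16 (filterByExpr, 13964 genes; TMM; quasi-likelihood over all 8 libraries, 1 mean per group, common dispersion 0.0421). SE is the log2 fold change over the square root of F. CPM used TMM-scaled library sizes; levels per kb used union exon length.

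Named genes were all 8 members, the 5 genes most like them, all members of lists of 12 or fewer and otherwise up to 5 by smallest p; single results for some listed genes are not reported here. The members and lists were chosen with earlier results of these data known. Alternatives were DESeq2 1.42.0, other scalings and filters, only the groups compared, a replicate block, the library prefix, immunoglobulin genes left out, longest transcripts, Spearman correlation, and each library left out. The fit was run on simulated data for CpG against naive alone, with the common dispersion for all genes and changes larger than most members had. That run did not cover the TLR comparisons or smaller changes.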

Additional observations from a re-analysis of the deposited data

How the results depend on the processing

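Each of the 24 member comparisons was recomputed under 18 alternatives. The counts of called members were 5 for CpG against naive, 4 for TLR against CpG and 6 for TLR against naive. With each library left out in turn they ran from 2 to 6, from 2 to 5 and from 5 to 7; without either TLR library, the remaining TLR library was assumed to vary like the other groups. With DESeq2, other scalings, filters, samples, the prefix as a term or immunoglobulin genes left out, all 3 counts stayed within 1.5 times the main count. With the replicate block they were 5, 4 and 6. Same-numbered CpG and naive libraries had correlated deviations of 0.16, 0.11 and 0.003, and same-numbered TLR and naive libraries 0.13 and 0.03. Same-numbered TLR and CpG libraries had 0.32 and 0.28, against -0.32 to 0.10 for their other pairs. For replicate 1, a shared number and a shared prefix cannot be told apart. The labels do not pair the libraries, so the main fit did not, and whether they are paired is not settled.

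Sign changed in 6 cases, all of uncalled differences. Gimap6 for TLR against CpG was 0.094 with prefix RCa18 alone and, with single libraries left out, ran from -0.28 to 0.017 (positive without TLR replicate 1). Likewise Gimap4 for TLR against CpG ran from -0.028 to 0.21 (negative without CpG replicate 3 or TLR replicate 2), Gimap7 for CpG against naive from -0.35 to 0.046 (positive without CpG replicate 3) and Gimap3 for TLR against naive from -0.046 to 0.20 (negative without TLR replicate 2). The cause was not tested. Longest transcripts in place of union exons raised the level per kb of Gimap1, Gimap5 and Gimap7 most and kept Gimap4 and Gimap6 first in every group. With 2 to 3 libraries a group, the number of libraries limits the precision.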
